A study of Mus musculus with 4 samples.

Results

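Messenger RNA of the enzymes of glycolysis, the pentose phosphate pathway and glycogen metabolism was compared between Hif1a-/- and WT leukemia stem cells. The set was a list of 38 genes, of which 34 had a probe set carrying a single gene symbol, among 19938 genes measured in the same way. The measured genes were 19 of 22 glycolysis genes, 8 of 8 glycogen genes and 7 of 8 pentose phosphate genes. The remaining 4, Gpi1, Eno1, Gapdh and G6pdx, had no such probe set and are not analysed here. Each gene was read from its probe set with the highest mean.

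The cells came from a transplantation model of chronic myeloid leukemia. Marrow of fluorouracil-treated donors, either C57BL/6 (the WT group, 2 samples) or Hif1a-/- (2 samples), was infected with a retrovirus that carries BCR-ABL, the fusion kinase that drives this leukemia, together with GFP, and was given to C57BL/6 recipients. GFP+ Lin- c-Kit+ Sca-1+ cells were sorted from recipient marrow 14 days later, and the labels give an age of 8 weeks. All samples therefore carried BCR-ABL, and the recipients were WT in both groups. The labels give C57BL/6 as the strain of every sample and do not say which part of Hif1a was deleted or with which driver. They call the replicates biological without saying whether these came from separate animals, so the p-values measure the spread between these samples, which may be technical. Each sample was read on 1 Affymetrix whole-transcript array, and values are log2 expression. In RNA of a whole sorted population, fewer cells of a type and less RNA per cell cannot be told apart.

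Glycolysis splits glucose into pyruvate, which lactate dehydrogenase turns to lactate. The glucose 6-phosphate at its entry also feeds the pentose phosphate pathway, which yields NADPH and ribose, and, through phosphoglucomutase, the store of glycogen. HIF-1, the transcription factor whose oxygen-regulated subunit Hif1a encodes, is known to activate many glycolysis genes in cells short of oxygen. It binds a core element that reads ACGTG or GCGTG.

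Hif1a itself read 11.34 and 11.50 on WT replicates 1 and 2 and 11.25 and 11.39 on Hif1a-/- replicates 1 and 2. The groups overlapped, so this probe set did not separate the genotypes; a probe set that reaches outside a deleted part does not check the deletion. Of the markers that define the sort, Kit read between 10.32 and 11.07, while Ly6a, the gene of Sca-1, was not analysed here. The 12 granulocyte markers had mean levels of 12.79 and 12.01 on the WT arrays and of 12.56 and 12.37 on the Hif1a-/- arrays. Ly6g, a neutrophil surface gene, read 13.10 on WT replicate 1 and between 10.64 and 11.74 on the other arrays. The WT arrays differed from each other by more than the genotypes did in 75.5% of all genes. A gap between 2 single arrays spreads more widely than a difference between means of 2 arrays. It is therefore the larger in most genes even without a genotype effect.

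No gene of the table passed limma with Benjamini-Hochberg adjustment at 0.05 (0 of 19938, 0%), so no member was called, and the smallest adjusted p of a member was 0.999. Unadjusted p below 0.05 was reached by 5 members, all lower in Hif1a-/- cells (Pfkl, Aldoc, Pgk1, Pkm and Pgm1), beside 0.978% of all genes lower and 0.697% higher. That number depended on the setting. Removing the genes below the median level left 0 such members of 30 tested, beside 83 lower genes of 9969. A variance trend gave 3 members, a block for the replicate number 2 and equal array medians 6. Of all 19938 genes, 187, 240 and 276 were lower at this level, in the same order. The Hif1a-/- arrays both stood below the WT arrays in 14 of the 34 members, beside 9.05% of all genes, and above them in 1, beside 15.7%. The mean was lower in Hif1a-/- cells for 25 members and higher for 9, beside 38.6% and 61.4% of all genes. The members were chosen with earlier results of these data known, so these counts describe the list and do not test it. Most members were bright, and bright genes leaned less to higher values. Of the 9969 genes above the median level, 46.0% were lower, 11.7% stood below without overlap and 8.4% above. Of the 30 members among them, 23 were lower, 13 stood below without overlap and 0 above. With the median of each array set equal, 26 members were lower, beside 49.3% of all genes, and 14 stood below without overlap, beside 13.4%. That scaling also moved the share of lower genes among all those with an unadjusted p below 0.05 from 58.4% to 76.0%. The 95% interval of the difference stayed within a 2-fold change in either direction for 32 of the 34 members, beside 97.7% of all genes. The exceptions among the members were Pfkl and Pygl.

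The branches differed in how their members read. The median difference, Hif1a-/- minus WT, was -0.21 for the 19 glycolysis genes, -0.27 for the 8 glycogen genes and -0.02 for the 7 pentose phosphate genes, beside 0.03 for all genes. The glycogen median was -0.12 without WT replicate 1 and -0.16 without Hif1a-/- replicate 2. Of the 14 members below without overlap, 12 belonged to glycolysis and 2 to glycogen. No pentose phosphate gene separated the groups in either direction. The gap between the WT arrays exceeded the genotype difference in 8 of 19 glycolysis genes, 6 of 8 glycogen genes and 7 of 7 pentose phosphate genes, beside 75.5% of all genes. The difference between the branches was not tested.

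**Figure D1:**
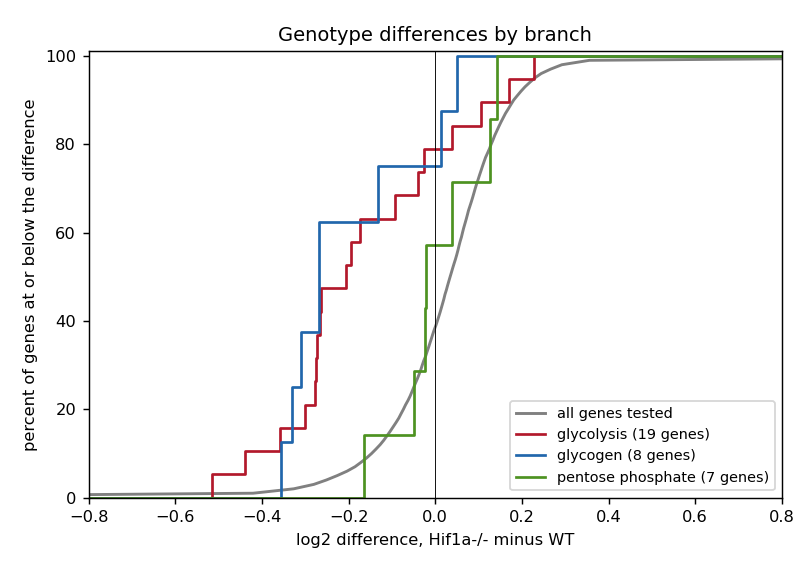
Cumulative percent of genes (vertical axis) at or below each log2 difference, Hif1a-/- minus WT (horizontal axis), for all 19938 genes and for the measured genes of each branch. The glycolysis and glycogen steps lie left of the curve of all genes, with medians of -0.21 and -0.27, and the pentose phosphate steps lie near it, with a median of -0.02.

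With each gene set to a mean of 0, the median glycolysis gene stood at 0.09 and 0.07 on WT replicates 1 and 2 and at -0.07 and -0.11 on Hif1a-/- replicates 1 and 2. The glycogen genes stood at 0.17, 0.05, -0.02 and -0.20 in the same order. The pentose phosphate genes stood at -0.01, 0.02, 0.06 and -0.08. The glycolysis and glycogen medians thus lay lower on both Hif1a-/- arrays than on both WT arrays, with a wider spread within each genotype for glycogen, and the pentose phosphate median had the Hif1a-/- arrays on either side of the WT arrays.

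**Figure D2:**
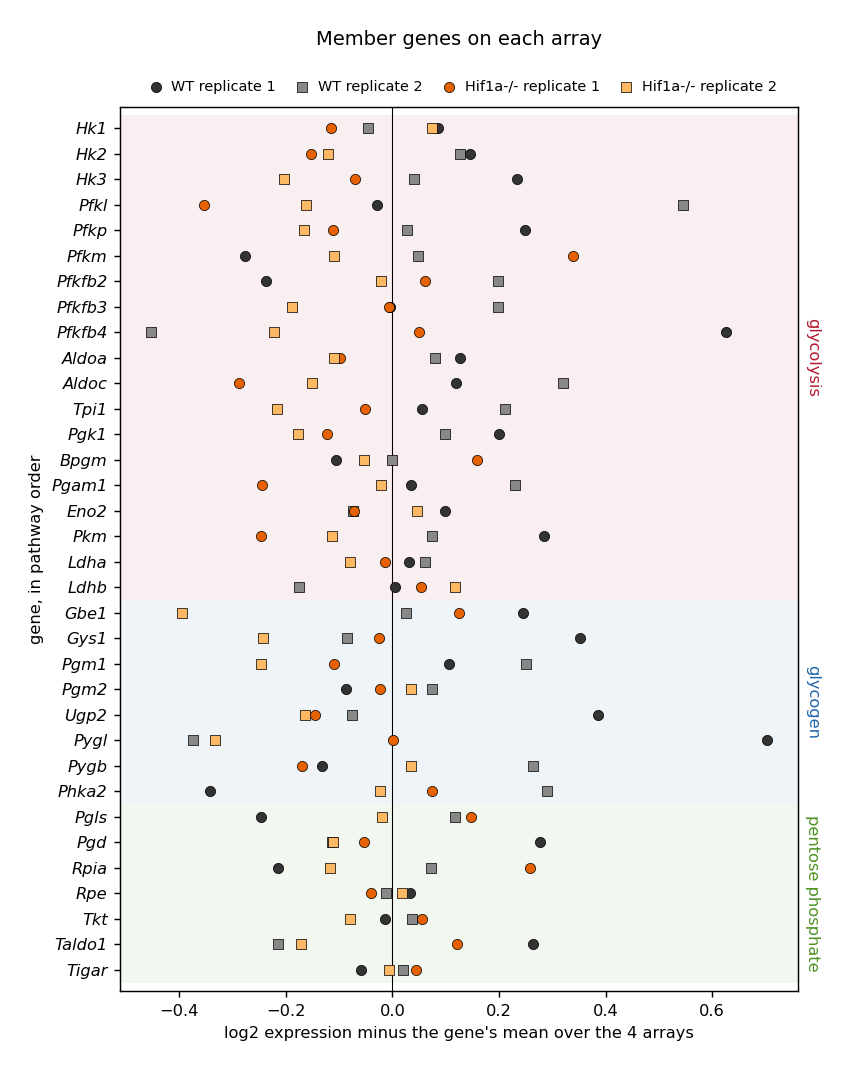
Log2 expression of each of the 34 measured genes on each array, minus the gene's mean over the 4 arrays (horizontal axis), in pathway order (vertical axis); circles are replicate 1, squares replicate 2, grey shades WT and orange shades Hif1a-/-. Both orange marks lie left of both grey marks in 14 genes, 12 of them in glycolysis, and right of them in Ldhb.

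The promoters of the members were searched for the core element of HIF. RefSeq windows of assembly GRCm38.p6, from 250 bases before to 50 after a start, were found for all 38 members (54 windows, some genes having several). The motifs ACGTG and GCGTG were sought on both strands, and CACGTG holds the first on both. A window with ACGTG was present in 19 of 38 members, against 21.8% of all genes with a window. By branch this was 13 of 22 glycolysis genes, 5 of 8 glycogen genes and 1 of 8 pentose phosphate genes, the last being the unmeasured G6pdx. GCGTG had another order, with 13 of 22, 4 of 8 and 6 of 8 genes of the same branches. Either motif was present in 18 of 22, 6 of 8 and 6 of 8, so the whole core did not set the pentose phosphate genes apart.

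Of the 14 members below without overlap 11 had ACGTG (78.6%), and of the 20 other measured members 6 had it (30.0%). GCGTG showed no such order, with 7 of 14 and 13 of 20, beside 35.2% of all genes. Either motif was present in 13 of the 14 and in 14 of the 20 (70.0%), beside 46.7% of all genes. The contrast between these groups of members was not tested. Over the 250 bases before the start, the windows of these 14 members had a median GC content of 62.8% and 17 CG pairs, against 57.2% and 11 for the 20 others. The windows of the members were richer in G and C than all windows (median 59.8% against 52.4%) and held more CG pairs (median 14 against 6), which are part of both motifs. The part of base composition in these shares was not tested. The counts describe letters in the windows and not binding.

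The following stretches, the 250 bases before the start on the strand of the gene, show members with and without the motif, with ACGTG of either strand in capitals. Pgk1, Hk2 and Pgm1 are members below without overlap with 2 matches each, Ldha has the densest window with only a small difference, and Tpi1 is below without overlap with no match.
Pgk1, chrX:106186850-106187099, plus strand: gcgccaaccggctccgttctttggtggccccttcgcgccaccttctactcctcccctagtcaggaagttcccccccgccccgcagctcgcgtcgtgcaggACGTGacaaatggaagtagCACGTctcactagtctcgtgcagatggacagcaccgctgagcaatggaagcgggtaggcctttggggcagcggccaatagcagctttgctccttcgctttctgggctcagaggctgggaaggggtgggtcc
Hk2, chr6:82774455-82774704, minus strand: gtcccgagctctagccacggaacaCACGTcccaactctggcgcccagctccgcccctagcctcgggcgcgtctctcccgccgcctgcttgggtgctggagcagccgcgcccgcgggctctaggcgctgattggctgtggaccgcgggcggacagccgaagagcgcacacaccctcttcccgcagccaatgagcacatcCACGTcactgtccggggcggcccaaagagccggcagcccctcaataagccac
Pgm1, chr4:99929201-99929450, plus strand: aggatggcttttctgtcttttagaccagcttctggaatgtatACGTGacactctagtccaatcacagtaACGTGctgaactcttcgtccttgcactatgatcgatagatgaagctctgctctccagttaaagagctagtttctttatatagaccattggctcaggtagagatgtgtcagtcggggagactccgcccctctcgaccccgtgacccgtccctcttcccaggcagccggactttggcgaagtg
Ldha, chr7:46845554-46845803, plus strand: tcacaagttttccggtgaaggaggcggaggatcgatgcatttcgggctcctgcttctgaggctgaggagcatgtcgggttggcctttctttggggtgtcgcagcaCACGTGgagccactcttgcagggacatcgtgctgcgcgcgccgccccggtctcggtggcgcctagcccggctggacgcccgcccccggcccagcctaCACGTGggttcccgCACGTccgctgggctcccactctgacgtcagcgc
Tpi1, chr6:124814159-124814408, minus strand: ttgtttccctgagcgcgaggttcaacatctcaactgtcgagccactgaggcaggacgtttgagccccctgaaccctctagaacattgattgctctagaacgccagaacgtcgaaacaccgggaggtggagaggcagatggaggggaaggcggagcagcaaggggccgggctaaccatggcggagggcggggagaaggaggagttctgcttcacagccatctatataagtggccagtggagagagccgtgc
In the Ldha window the matches fall in 3 places, and in 2 of them the letters read CACGTG. The Ldha difference was -0.09, while Tpi1, with neither motif in its window, differed by -0.27, close to the -0.27 of Hk2 and the -0.30 of Pgk1. The number of matches therefore did not order these 5 genes by their difference, and no match says only that these letters are not in this window.

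At the entry of glucose, the hexokinases Hk2 and Hk3 read lower in Hif1a-/- cells, and Hk1 gave no settled direction. Hk2, the inducible hexokinase, read 10.13 and 10.11 on the WT arrays and 9.83 and 9.87 on the Hif1a-/- arrays. Replicates of Hk2 lay 0.019 apart in WT and 0.032 apart in Hif1a-/- cells, and the groups did not overlap. The difference was -0.27 ± 0.12 (SE), a 1.21-fold lower level, with an unadjusted limma p of 0.0600. Hk3, the hexokinase of myeloid cells, read 10.74 and 10.54 in WT and 10.43 and 10.30 in Hif1a-/- cells. That was a difference of -0.27 ± 0.14 (SE), with an unadjusted limma p of 0.0865.

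For Hk1, the hexokinase found in most tissues, the 2 probe sets disagreed. The set with the highest mean read 13.10 and 12.97 in WT and 12.90 and 13.09 in Hif1a-/- cells, a difference of -0.04 ± 0.14 (SE) with overlapping groups. The annotation ties this set to Hk1 through a single sequence record and no RefSeq transcript. The same record is listed by 16 other probe sets, all of which also name Rpl17, a ribosomal protein gene, and these read between 12.06 and 13.003 on average. The Hk1 set that lists RefSeq transcripts read 11.34 and 11.36 in WT and 11.56 and 11.41 in Hif1a-/- cells, 0.13 higher. The Hk1 value by the highest-mean rule is therefore uncertain.

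At phosphofructokinase, the committing step, the 3 subunits read differently. Pfkl, the liver-type subunit, read 10.47 and 11.05 in WT and 10.15 and 10.34 in Hif1a-/- cells. The difference was -0.52 ± 0.21 (SE), the largest of the measured members with all arrays, a 1.43-fold lower level with an unadjusted limma p of 0.0434. WT replicate 2 was high, and the WT arrays lay 0.57 apart. Without WT replicate 2 the Pfkl difference was -0.23, and without WT replicate 1 it was -0.80.

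Pfkp, the platelet-type subunit, read 11.57 and 11.35 in WT and 11.21 and 11.15 in Hif1a-/- cells, a difference of -0.28 ± 0.13 (SE) with an unadjusted limma p of 0.0822. Pfkm, the muscle-type subunit, differed the other way, by 0.23 ± 0.19 (SE), with overlapping groups and an interval from -0.24 to 0.70. The difference between Pfkm and the other subunits was not tested. Among the bifunctional enzymes that set fructose 2,6-bisphosphate, the activator of phosphofructokinase, Pfkfb2 differed by 0.04 and Pfkfb4 by -0.17, both with overlap. Pfkfb3 differed by -0.19 without overlap, although replicate 1 of both genotypes read 9.80.

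Aldolase and triose phosphate isomerase, which yield the triose phosphates, read lower in Hif1a-/- cells for all 3 genes. Aldoc, the aldolase typical of brain, read 8.63 and 8.83 in WT and 8.22 and 8.36 in Hif1a-/- cells. The difference was -0.44 ± 0.14 (SE), a 1.36-fold lower level, with an interval from -0.77 to -0.11. Its unadjusted limma p of 0.0167 was the smallest among the members. Aldoa, the widely expressed aldolase, read 13.36 and 13.32 in WT and 13.14 and 13.13 in Hif1a-/- cells. Its replicates were the closest of any gene of this step, and the difference was -0.21 ± 0.12 (SE). Tpi1, the isomerase, read 12.29 and 12.45 in WT and 12.19 and 12.02 in Hif1a-/- cells, a difference of -0.27 ± 0.13 (SE) with no overlap.

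In the lower part of glycolysis, where ATP is formed, Pgk1, Pgam1 and Pkm read lower in Hif1a-/- cells with no overlap, and Eno2 did not separate the groups. Pgk1, phosphoglycerate kinase, read 12.77 and 12.67 in WT and 12.44 and 12.39 in Hif1a-/- cells. The difference was -0.30 ± 0.12 (SE), 1.23-fold, with an unadjusted limma p of 0.0483. A further Pgk1 set gave the same difference of -0.30, and the third held values identical to the first. Near-identical copies of Pgk1 and Pgam1 exist elsewhere in the genome, so signal between sets of these genes may be shared.

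Pgam1, phosphoglycerate mutase, read 12.37 and 12.56 in WT and 12.09 and 12.31 in Hif1a-/- cells, a difference of -0.26 ± 0.14 (SE). Its other sets gave -0.34 and held values identical to each other, so they count as a single reading. Pkm, the pyruvate kinase of most tissues, read 12.82 and 12.61 in WT and 12.29 and 12.43 in Hif1a-/- cells. That was a difference of -0.36 ± 0.14 (SE), 1.28-fold, with an unadjusted limma p of 0.0376, and -0.23 on a second set. Neither gene had a Hif1a-/- array as high as a WT array. Eno2, the enolase typical of neurons, differed by -0.03. Bpgm, which makes the 2,3-bisphosphoglycerate of red cells, differed by 0.11, both with overlapping groups.

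At the last step the subunits of lactate dehydrogenase differed little. Ldha, the muscle-type subunit, read 13.28 and 13.31 in WT and 13.23 and 13.17 in Hif1a-/- cells. The groups did not overlap, but the difference of -0.09 ± 0.12 (SE) was smaller than its standard error, with an interval from -0.38 to 0.20. Ldhb, the heart-type subunit, read 8.12 and 7.94 in WT and 8.17 and 8.24 in Hif1a-/- cells, a difference of 0.17 ± 0.13 (SE). With the probe sets used, Ldhb was the 1 member with both Hif1a-/- arrays above both WT arrays, and its second probe set gave 0.09. With the RefSeq-listed set of Hk1 there were 2 such members.

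**Figure D3:**
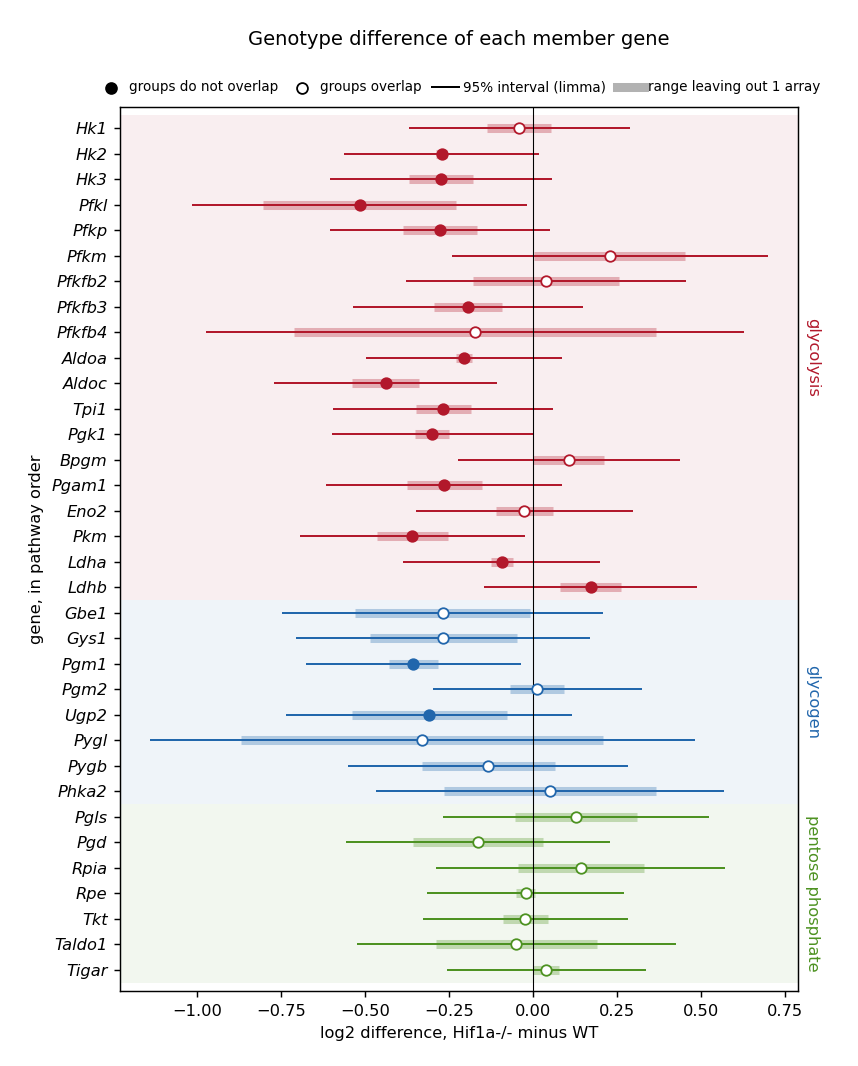
Log2 difference, Hif1a-/- minus WT (horizontal axis), of each measured gene in pathway order (vertical axis), with the 95% limma interval as a thin line and the range over the 4 fits that leave out 1 array as a thick band; filled points mark groups that do not overlap. Pfkl at -0.52 and Aldoc at -0.44 lie farthest left, and the pentose phosphate genes lie between -0.16 and 0.14.

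Of the 8 glycogen genes, Pgm1 and Ugp2 read lower in Hif1a-/- cells without overlap, and the other 6 had overlapping groups. Pgm1, a phosphoglucomutase that joins glycogen to glycolysis, read 10.29 and 10.44 in WT and 10.08 and 9.94 in Hif1a-/- cells. The difference was -0.36 ± 0.13 (SE), 1.28-fold, with an unadjusted limma p of 0.0328. Ugp2, which makes the UDP-glucose used for synthesis, read 10.57 and 10.11 in WT and 10.04 and 10.02 in Hif1a-/- cells. WT replicate 1 stood 0.46 above WT replicate 2, and the difference of -0.31 ± 0.18 (SE) was -0.079 without it.

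Gys1, glycogen synthase, and Gbe1, the branching enzyme, each differed by -0.27 with overlapping groups. Without WT replicate 1 the Gys1 difference was -0.05, and without Hif1a-/- replicate 2 the Gbe1 difference was -0.010. Pgm2, a phosphoglucomutase that also acts on pentose phosphates, differed by 0.01. Of the genes of glycogen breakdown, the phosphorylases Pygl and Pygb differed by -0.33 and -0.13 and Phka2, a subunit of phosphorylase kinase, by 0.05, all with overlapping groups.

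The pentose phosphate genes lay close to 0. In the oxidative arm, Pgd, which forms NADPH and ribulose 5-phosphate, differed by -0.16 and Pgls, the lactonase before it, by 0.13. In the non-oxidative arm, which links pentoses back to glycolysis, the transketolase Tkt differed by -0.02, the transaldolase Taldo1 by -0.05, the isomerase Rpia by 0.14 and the epimerase Rpe by -0.02. Tigar, a phosphatase that lowers fructose 2,6-bisphosphate, differed by 0.04. All 7 had overlapping groups, and the smallest unadjusted limma p among them was 0.347. The intervals ran from -0.31 to 0.27 for Rpe, the narrowest, and from -0.52 to 0.42 for Taldo1, the widest. For Pgd the interval was -0.55 to 0.23, so a difference like that of Pkm (-0.36) was not excluded for Pgd or Taldo1. Upward, the intervals of Pgls and Rpia reached 0.52 and 0.57.

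In several members the WT arrays lay farther apart than the genotypes. Pfkfb4 and Pygl each lay 1.08 lower on WT replicate 2 than on WT replicate 1, Phka2 lay 0.63 higher and Taldo1 0.48 lower. Leaving out WT replicate 1 turned Pfkfb4 to 0.37 and Pygl to 0.21, and leaving out WT replicate 2 gave -0.71 and -0.87. Of the 12 granulocyte markers 8 were also lower on WT replicate 2, among them Ly6g (13.10 against 10.64) and Ltf (13.52 against 11.47), genes of late neutrophil maturation. The other 4, Elane, Mpo, Prtn3 and Ctsg, which encode granule proteins of early stages, were higher there, and the list's median was -0.95. Ly6g and Itgam, which the lineage-negative gate is meant to leave out, read 13.10 and 11.88 on WT replicate 1 and 10.64 and 10.27 on WT replicate 2. The part of granulocytes in the values of Pfkfb4 and Pygl was not tested.

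**Figure D4:**
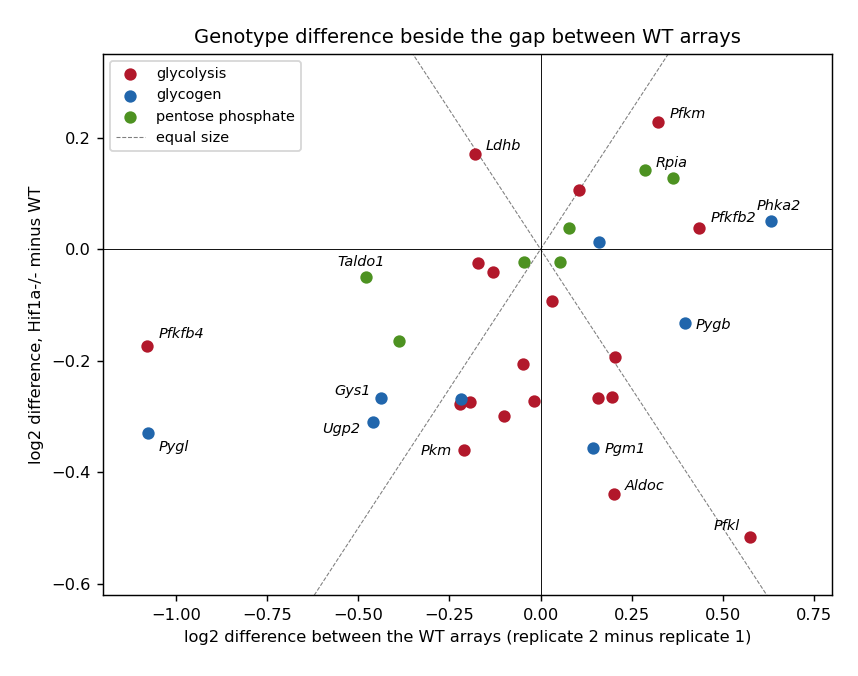
Log2 difference between genotypes (vertical axis) against the log2 difference between the WT arrays, replicate 2 minus replicate 1 (horizontal axis), for the 34 measured genes, coloured by branch; dashed lines mark equal size. Pfkfb4 and Pygl lie farthest left, 1.08 lower on WT replicate 2, while Hk2 and Aldoa lie near the vertical axis with gaps of 0.019 and 0.047.

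Leaving out 1 array at a time left 19 of the 34 members with the same sign throughout: 15 of 19 glycolysis genes, 4 of 8 glycogen genes and 0 of 7 pentose phosphate genes. Where the groups did not overlap, leaving out 1 array cannot turn the sign, so for those members this count restates the separation. The range was -0.29 to -0.26 for Hk2, -0.23 to -0.18 for Aldoa and -0.35 to -0.25 for Pgk1. It was wider for Pkm (-0.46 to -0.25), Pgam1 (-0.38 to -0.15) and Tpi1 (-0.35 to -0.19), and Hk1 turned sign (-0.14 to 0.054). With adjustment over all genes, 2 members were called without WT replicate 1 (Pfkl and Aldoc, lower) and 5 without WT replicate 2 (Pfkfb4, Pkm, Gys1, Ugp2 and Pygl, lower). In these fits 349 and 1442 genes of the table were called, and a lone WT array was assumed to vary like the other group. Without a Hif1a-/- array, no member was called.

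Genes of the same pathways outside the list had medians near that of all genes. Several of these genes were dim, among them Gys2 with a WT mean of 6.38, where the 25th percentile of gene means was 7.49. A lower level is hard to see in such genes, but most of the other genes had a WT mean above that percentile. The medians do not show that every gene of the pathways outside the list was unchanged. Of 16 measured genes among 19 other genes of glycolysis and gluconeogenesis, 8 read lower and 8 higher, with a median of 0.01. None of the other glycogen genes (20 of 21 measured, median 0.03) or of the other pentose phosphate and ribose genes (11 of 12 measured, median 0.01) reached an unadjusted p below 0.05. In the first of these lists 1 gene did, Pklr, the pyruvate kinase of liver and red cells. Pklr read 10.48 and 10.45 in WT and 11.50 and 10.99 in Hif1a-/- cells, 0.78 ± 0.19 (SE) higher. The unadjusted limma p was 0.00496, and 0.999 after adjustment over all genes. The Pklr difference was 0.52 without Hif1a-/- replicate 1 and 1.03 without Hif1a-/- replicate 2.

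Pklr and Pkm thus differed in opposite directions, although their difference from each other was not tested. All 8 measured erythroid markers of 12 read higher in Hif1a-/- cells, with mean levels of 10.01 and 9.87 on the WT arrays and 10.51 and 10.26 on the Hif1a-/- arrays. The other markers of this list were not analysed here. In 5 of the 8 the groups did not overlap, beside 15.7% of all genes above without overlap. Rhag (0.84), Ermap (0.70), Sptb (0.69) and Epor (0.68) had the largest differences of that list. Alas2, the first enzyme of heme synthesis in red cells, read between 8.39 and 8.79 and differed by 0.13 with overlapping groups. The lineage-negative gate is meant to leave out mature blood cells. The part of erythroid cells in the Pklr value was not tested. The remaining genes with the smallest p of each list were Minpp1 (0.28), which acts on 2,3-bisphosphoglycerate, Fbp1 (0.17), of gluconeogenesis, Ppp1r3b (-0.21) and Ppp1r3c (0.18), which target a phosphatase to glycogen, Gys2 (0.20), the liver glycogen synthase, Prps1 (0.36), which uses ribose 5-phosphate, and Me1 (-0.25) and Idh1 (-0.25), further sources of NADPH.

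No marker of another cell type passed the adjusted test. All 11 mast cell and basophil markers had a lower mean in Hif1a-/- cells, beside 38.6% of all genes, with a median difference of -0.17. In 3 of these markers the groups did not overlap, beside 9.05% of all genes below without overlap. Mean levels were 11.81 and 11.75 on the WT arrays and 11.20 and 11.54 on the Hif1a-/- arrays. The proteases Mcpt4 (-1.30), Tpsb2 (-0.87), Cma1 (-0.85) and Tpsab1 (-0.62) had the largest differences of that list. Of the 8 measured monocyte and dendritic cell markers of 10, 5 were lower, 4 of them without overlap, and 3 higher (Siglech, Cx3cr1 and Fcgr1), with mean levels of 9.43 and 9.35 against 9.04 and 9.17. The 8 measured markers of 10 for mature lineages, which the sort is meant to leave out, were lower in 4 and higher in 4, with mean levels of 9.15 and 8.46 in WT and 8.80 and 8.70 in Hif1a-/- cells. The part of these cell types in the lower glycolysis values was not tested. The 9 stromal and endothelial markers stood at 8.43 and 8.47 in WT and 8.37 and 8.49 in Hif1a-/- cells. RMA values have no true 0, so no marker can be called absent.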

How the data were processed

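RNA of sorted BCR-ABL-expressing leukemia stem cells was measured on 4 arrays, 2 WT and 2 Hif1a-/-. The authors deposited log2 expression of 35556 probe sets in 1 table. Per the submitters' processing notes it was made with Affymetrix Expression Console 1.1 and RMA, which corrects background, normalizes by quantiles and summarises probes, and which understates differences of dim genes (other settings are not stated there). The number of arrays limits the precision.

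Samples were grouped by title. Of the probe sets, 21789 carried 1 symbol in the platform annotation, 1621 several and 12146 none. Each of 19938 genes was read from its highest-mean set with 1 symbol, and all 34 measured members kept their symbol in the RefSeq table of GRCm38.p6. All genes were fitted together with limma 3.58.1 in R 4.3.3, genotype as the only term, with Benjamini-Hochberg adjustment at 0.05 and unadjusted p given beside it; standard errors and 95% intervals use its moderated variance, with 2 residual and 4.46 prior degrees of freedom. Exact permutation of 2 against 2 arrays gives a two-sided p of at least 0.333. On simulated data for this comparison (19938 genes, 10 data sets), 59.5% of the 2-fold changes and 97.7% of the 4-fold ones were called. Each data set held 200 changed genes, and the shares called depend on that number, which is not known for the real table. There Mcpt4, 2.47-fold lower in Hif1a-/- cells, was not called, with a limma adjusted p of 0.239.

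Members and lists were chosen with earlier results of these data known. Arrays are given for members with an unadjusted p under 0.05 or with a difference of at least 0.2 without overlap, and for the hexokinases and lactate dehydrogenases; other members by difference; from each list of other pathway genes, up to 3 with the smallest p. Single genes of the marker lists were named after their values were seen. Promoters were searched in Python 3.11.15. Alternatives were filters, normalizations, a floor, variance trends, averaged probe sets, a block for the replicate number, leaving out each array and, added after the data had been seen, the RefSeq-listed set of Hk1.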

Additional observations from a re-analysis of the deposited data

How the results depend on the processing

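The direction of 19 of the 34 member genes held under every setting run, and that of the other 15 turned with some array left out. Outside those fits, 3 differences turned: Pgm2 with centred array medians (-0.020), and Hk1 as the mean of its probe sets (0.045) or from its RefSeq-listed set (0.13). The filters, the variance trends and the replicate block leave each difference unchanged by design, so they could not turn a sign. Nor could leaving out 1 array where the groups did not overlap. With an array left out the ranges were -0.14 to 0.054 for Hk1, -0.18 to 0.26 for Pfkfb2, -0.71 to 0.37 for Pfkfb4, -0.11 to 0.060 for Eno2, -0.068 to 0.093 for Pgm2, -0.87 to 0.21 for Pygl and -0.33 to 0.065 for Pygb. They were -0.27 to 0.37 for Phka2, -0.055 to 0.31 for Pgls, -0.36 to 0.030 for Pgd, -0.046 to 0.33 for Rpia, -0.051 to 0.0066 for Rpe, -0.091 to 0.044 for Tkt, -0.29 to 0.19 for Taldo1 and -0.00016 to 0.077 for Tigar. The glycolysis median was -0.26 with the dimmer genes below the median level removed, -0.24 with centred arrays, and -0.26 to -0.18 with an array left out. The glycogen median ranged from -0.35 to -0.12 and the pentose phosphate median from -0.046 to 0.063. Genes below without overlap, with an array left out, numbered 4 to 5 for glycogen against 2 and 0 to 3 for pentose phosphate against 0, where fewer arrays make separation easier; the counts were 1 for glycogen after a second quantile normalization and 1 for pentose phosphate with centred arrays. Genes called by limma over the whole table numbered 0, beside 195 lower and 139 higher with an unadjusted p under 0.05, 1 with a variance trend, 2 with a robust trend and 2 to 1442 with an array left out; members called numbered 0 to 5. The replicate numbers did not pair the samples (correlation of deviations -0.0072 over genes), and a replicate block gave 47 called genes and 0 members. The causes were not tested. The number of arrays limits the precision: the median standard error over all genes was 0.14 on the log2 scale.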
